A study of Mus musculus with 6 samples.

Results

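The histone genes were followed on arrays of bone marrow RNA from leukaemic NUP98/HOXD13 mice. The members were the probe sets whose deposited gene symbol, alone or in a list, begins with Hist1h, Hist2h, Hist3h or Hist4h, or is 1 of 9 separately encoded histones (H1f0, H2afx, H2afy, H2afy2, H2afz, H2afv, H2afj, H3f3a and H3f3b). This rule found 32 of the 22662 genes that the array's probe sets name, at 55 of its 45101 probe sets. Of these probe sets, 7 belong to linker histone H1, 9 to H2A, 8 to H2B, 6 to H3 and 4 to H4 of the clusters, and 21 to the separately encoded histones. No probe set named a Hist4h gene.

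The samples fell into 2 groups of 3. The titles of one group read Gfi1bfl/fl MxCretg NUP98/HOXD13 and its genotype label reads Gfi1b KO. The titles of the other read Gfi1b wt MxCretg NUP98/HOXD13, with the genotype label Gfi1b wildtype. Both groups therefore carried the Mx-Cre recombinase, which is driven by an interferon-responsive promoter, and the NUP98/HOXD13 transgene, a fusion gene that models myelodysplastic syndrome and acute myeloid leukaemia. Age, sex, induction of the recombinase and the number of mice are not given in the labels, so the spread behind each p-value is that of these samples and may be technical. Values listed in threes follow the replicate numbers.

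Histones package DNA into nucleosomes, with H2A, H2B, H3 and H4 in the core and H1 on the linker. The genes of the clusters are mostly transcribed in S phase, and their mRNAs end in a stem-loop that the protein encoded by Slbp binds, without a poly(A) tail. Most of the separately encoded histones are made outside S phase too, from polyadenylated mRNAs, and replace the S phase forms at particular places in chromatin. H2afx is an exception in that not all of its mRNA is polyadenylated. Some cluster genes also give polyadenylated transcripts in cells that have left the cycle. The labels name the Express Kit, not its primer. Where labelling starts from poly(A), a cluster probe set reads mainly the polyadenylated part of its transcripts, and the size of that part was not tested here.

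Promoters are shown as examples for 4 of the members with at least 1 probe set whose group mean was higher in the samples labelled KO. These are Hist1h1c, Hist1h2bp, Hist1h4a and H2afz. Hist1h2be, another such member, is shown as an H2B example that holds an octamer. The promoters come from RefSeq (GRCm38.p6), run 5′ to 3′ from 250 bases before to 50 after the gene's start, and were matched by symbol. Capitals mark 3 motifs searched on both strands, the core promoter motif TATAAA, the upstream motif CCAAT and the octamer ATTTGCAT, and any that overlap run together. The search took exact letters at any place in the window, so a marked TATAAA need not be a working core promoter motif. That of Hist1h4a stands within the 50 bases after the start. Hist1h2be has 2 listed starts, and the one with the octamer is shown. Hist1h4h, whose probe set was also higher in the samples labelled KO, is not printed, and its listed promoter held 0 of these motifs.
Hist1h1c (H1f2), chr13:23738557-23738856, strand +: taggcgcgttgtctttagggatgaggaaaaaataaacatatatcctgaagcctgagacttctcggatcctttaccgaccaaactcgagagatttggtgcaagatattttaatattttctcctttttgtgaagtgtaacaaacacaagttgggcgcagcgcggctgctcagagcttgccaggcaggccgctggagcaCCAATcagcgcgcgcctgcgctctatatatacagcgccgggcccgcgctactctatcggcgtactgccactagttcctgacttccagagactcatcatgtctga
Hist1h2bp (H2bc22), chr13:21787238-21787537, strand +: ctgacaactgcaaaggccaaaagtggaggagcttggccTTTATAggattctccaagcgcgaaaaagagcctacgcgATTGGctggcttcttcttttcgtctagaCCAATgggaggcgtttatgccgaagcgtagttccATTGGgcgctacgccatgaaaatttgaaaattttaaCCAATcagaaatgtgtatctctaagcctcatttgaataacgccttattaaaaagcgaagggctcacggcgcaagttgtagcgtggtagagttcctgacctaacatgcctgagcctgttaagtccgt
Hist1h2be (H2bc6), chr13:23585921-23586220, strand -: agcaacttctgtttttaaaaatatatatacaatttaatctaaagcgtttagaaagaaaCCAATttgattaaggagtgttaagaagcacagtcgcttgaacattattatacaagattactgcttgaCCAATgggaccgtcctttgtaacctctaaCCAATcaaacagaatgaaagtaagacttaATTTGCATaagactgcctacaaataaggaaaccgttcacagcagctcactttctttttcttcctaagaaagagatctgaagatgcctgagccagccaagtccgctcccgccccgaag
Hist1h4a (H4c1), chr13:23761200-23761499, strand -: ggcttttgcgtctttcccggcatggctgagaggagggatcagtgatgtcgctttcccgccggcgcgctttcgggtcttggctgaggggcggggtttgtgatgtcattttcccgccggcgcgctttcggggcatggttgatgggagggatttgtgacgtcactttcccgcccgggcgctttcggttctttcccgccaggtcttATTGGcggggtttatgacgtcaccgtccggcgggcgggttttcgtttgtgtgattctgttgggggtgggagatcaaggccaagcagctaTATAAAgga
H2afz (H2az1), chr3:137864237-137864536, strand +: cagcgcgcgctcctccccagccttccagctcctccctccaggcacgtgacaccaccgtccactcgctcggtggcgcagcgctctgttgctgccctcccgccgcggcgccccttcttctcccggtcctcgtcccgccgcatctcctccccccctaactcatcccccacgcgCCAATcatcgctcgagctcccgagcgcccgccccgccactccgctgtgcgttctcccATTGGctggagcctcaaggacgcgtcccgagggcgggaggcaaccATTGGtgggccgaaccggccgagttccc

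Of 67 protein-coding cluster genes in RefSeq, 63 promoters were listed. TATAAA stood in 35 of them (55.6%), against 13.6% of all 32851 promoter windows of the same length. CCAAT stood in 54 (85.7%, against 37.4%), including all 6 of H1, 18 of H2A, 17 of H2B and 10 of H3, but 3 of 12 of H4. The octamer stood in 14 (22.2%, against 1.74%), which were 7 of 18 H2A and 7 of 17 H2B promoters. It was found in 0 of the 6, 10 and 12 windows of H1, H3 and H4. Of 8 listed promoters of separately encoded histones, 1 held TATAAA, 6 held CCAAT and 1 the octamer. Genes of a cluster share near-identical sequence and the H2A and H2B genes often stand side by side, so these windows are not independent.

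The groups differed widely outside the histones, and several facts of the samples bear on every value below. Gfi1b itself, the targeted gene, gave log2 values of 10.88, 11.63 and 11.67 in the KO group against 5.83, 6.37 and 4.38 in wildtype. The gene that the labels call knocked out thus read higher in the samples so labelled (limma adjusted p = 0.00714), and directions below are those of the samples labelled KO. Marker levels are means of log2 values over genes, with the brightest probe set of each. Of 13 neutrophil and granule genes 9 fell and 0 rose, and the list mean lay between 4.23 and 7.72 in the samples labelled KO and between 11.50 and 13.10 in wildtype. Monocyte and macrophage markers included 6 falls and 0 rises among 11 genes (4.15 to 4.80 against 6.53 to 8.35). Of 14 erythroid genes 2 rose and 0 fell (7.93 to 9.99 against 6.40 to 8.43). The mean of 15 T lineage genes, of which 0 passed, reached 8.07 in wildtype replicate 2, while the remaining 5 samples lay from 4.27 to 4.75. Of 7 B lineage genes 1 fell, and Pax5, Ebf1, Ms4a1 and Vpreb1 read near the floor in both groups. General haematopoietic genes were present, with 0 of 7 near the floor, and 2 of them fell (6.53 to 7.04 against 7.68 to 8.89). In bulk marrow, fewer cells of a type and less RNA per cell cannot be told apart, and the part of these cell types in the histone values was not tested.

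No histone probe set passed the test between the groups. In limma over 45037 probe sets, 0 of 55 had an adjusted p under 0.05, where 2.93% of all probe sets did. That background of 1319 probe sets itself changed with each sample left out. It rose to 2187 without wildtype replicate 2, and fell to 49 without KO replicate 2 and to 450 to 635 without any of the other 4 samples. The authors' deposited table likewise lists 0 of 55 past its adjusted p, the lowest being 0.0608 for a probe set of Hist1h1c. At an unadjusted p under 0.05 there were 10 of 55 (18.2%), close to the 16.9% of all probe sets. Among probe sets with a group mean above 3.86, the highest array median and here called the floor, there were 10 of 41 members (24.4%) against 29.8% of all. Of these 10, 9 were higher in the samples labelled KO (16.4%, background 8.87%) and 1 was lower (1.82%, background 8.05%). Of the 10, 8 were probe sets that can match several transcripts, as 22 of the 55 members can. Such probe sets have names ending in _a_at, _s_at or _x_at, and the transcripts may be of the same gene or of different genes. Without such probe sets, 2 of 33 members were higher (6.06%, background 7.72%) and 0 lower (background 7.58%) at an unadjusted p under 0.05 in limma. After adjustment there were 0. These 33 also hold all members with both group means under the floor, except the probe set of H2afy2 and H2afy3. The part of matching and the part of brightness in the lost excess were not tested. The groups did not overlap at 9 probe sets that were higher (16.4%, background 12.5%) and at 1 that was lower (1.82%, background 10.2%). The median log2 fold change was 0.06 over the 55 and 0.02 over all probe sets, with a range from -1.15 to 1.38. At 14 members both group means lay under the floor, where differences are compressed. The share near the floor was 25.5%, against 48% of all probe sets.

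**Figure D1:**
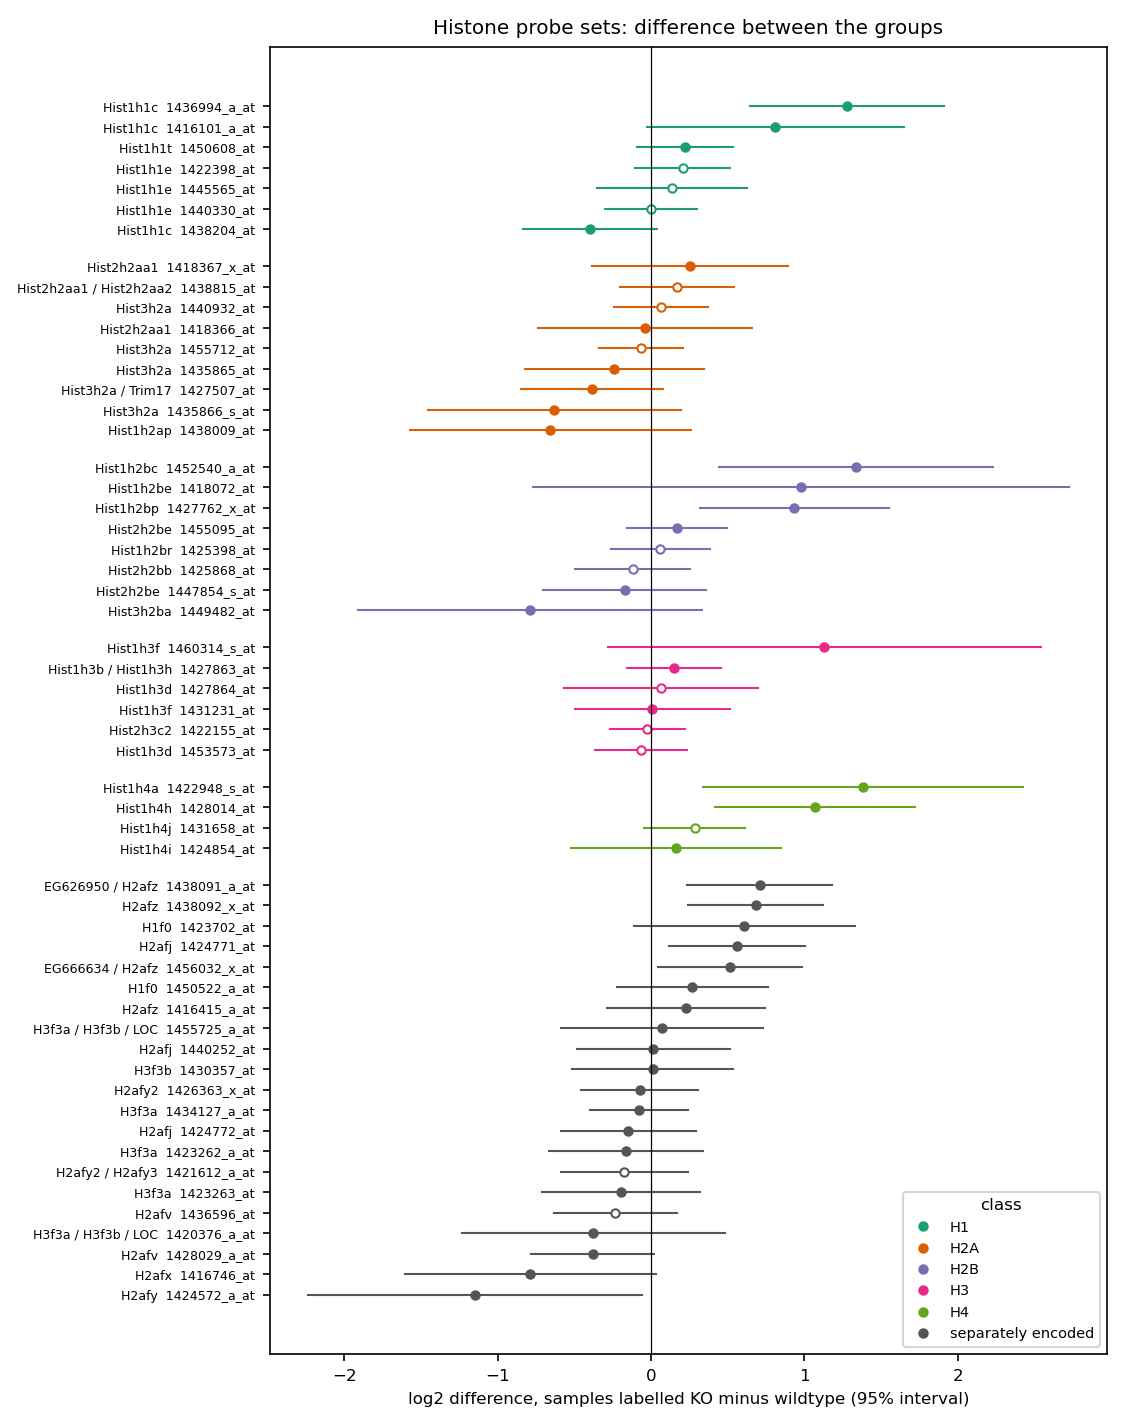
Difference between group means (log2, samples labelled KO minus wildtype) for all 55 histone probe sets, with limma's 95% interval, coloured by class. Open circles have both group means under the floor of 3.86, and LOC stands for LOC100045490. The differences run from -1.15 for H2afy to 1.38 for Hist1h4a, and 0 of them passed after adjustment.

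Linker histone H1 of the clusters compacts chromatin between nucleosomes. Hist1h1c, a linker histone of dividing and resting cells, had 3 probe sets. At 1436994_a_at it read 5.88, 6.51 and 6.55 in KO and 4.72, 5.48 and 4.91 in wildtype. The groups did not overlap, with means of 6.32 ± 0.38 and 5.04 ± 0.40 (SD, n = 3). The log2 fold change was 1.28 (standard error 0.26, 95% interval 0.64 to 1.91), a 2.42-fold difference that did not pass (limma adjusted p = 0.0607). At 1416101_a_at Hist1h1c read 7.38, 7.64 and 8.04 in KO and 6.38, 7.65 and 6.61 in wildtype, and wildtype replicate 2 lay within the KO range. This difference was 0.81 (interval -0.03 to 1.65, limma adjusted p = 0.311). The probe set 1438204_at of Hist1h1c pointed the other way, with 4.32, 4.19 and 4.09 against 4.89, 4.25 and 4.65 and a difference of -0.40 (limma adjusted p = 0.342). The probe sets of Hist1h1c thus disagreed in sign, and the 2 with the positive difference are of the kind that can match several transcripts. Hist1h1e, another somatic H1, read under the floor at all 3 of its probe sets, with group means from 3.13 to 3.74. Hist1h1t, the testis H1, averaged 4.84 and 4.62, a difference of 0.22 (limma adjusted p = 0.471).

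Core histone H2A forms a dimer with H2B. Hist1h2ap, an S phase H2A whose symbol is a synonym of more than 1 current RefSeq gene, read 11.81, 12.56 and 10.96 in KO and 12.21, 12.59 and 12.49 in wildtype. The groups overlapped, and KO replicate 3 was the lowest of the 6 samples. The log2 fold change was -0.66 (interval -1.57 to 0.26, limma adjusted p = 0.461), and it was -0.25 without KO replicate 3 and -1.05 without KO replicate 2. Hist3h2a, a gene of the small cluster that also holds Hist3h2ba, had 5 probe sets with differences from -0.63 to 0.07. Its largest, at 1435866_s_at, came from 4.24, 4.68 and 5.10 in KO against 5.90, 5.30 and 4.71 in wildtype, with overlapping groups (limma adjusted p = 0.43). A further probe set names Hist3h2a together with Trim17, a gene that is no histone, and is counted among the 5. Hist2h2aa1 had 3 probe sets, 1 of them shared with Hist2h2aa2, with differences from -0.04 to 0.25. None of the 9 probe sets of H2A had an unadjusted p under 0.05 in limma, and their median was -0.07.

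At 2 of the 8 H2B probe sets (25%, background 12.5%) the samples labelled KO read higher without overlap, and wildtype replicate 2 lay closest to them. Both, of Hist1h2bc (1452540_a_at) and Hist1h2bp (1427762_x_at), are of the kind that can match several transcripts. Whether their values belong to these genes alone was not tested. Hist1h2bc read 10.34, 10.03 and 10.31 in KO and 8.48, 9.80 and 8.40 in wildtype. The groups did not overlap, with means of 10.23 ± 0.17 and 8.89 ± 0.78 (SD, n = 3). The log2 fold change was 1.34 (standard error 0.37, interval 0.44 to 2.23), a 2.52-fold difference that did not pass (limma adjusted p = 0.129). Hist1h2bp, named after its values were seen, read 6.15, 5.88 and 5.99 against 4.79, 5.67 and 4.77, also without overlap. Its difference was 0.93 (interval 0.32 to 1.55, limma adjusted p = 0.126). Hist1h2be, whose promoter with the octamer is printed above, spread widely among the KO samples, with 6.17, 7.38 and 9.36 against 6.55, 6.80 and 6.63. KO replicate 3 was the highest of the 6 samples and KO replicate 1 the lowest. The difference of 0.98 had an interval from -0.77 to 2.72 (limma adjusted p = 0.577), and it was 0.11 without KO replicate 3 and 1.71 without KO replicate 1. Hist3h2ba, named after its values were seen, read 4.04, 3.87 and 3.57 in KO and 3.87, 5.74 and 4.23 in wildtype, where wildtype replicate 2 stood out (difference -0.79, limma adjusted p = 0.469). The other H2B probe sets, of Hist2h2be, Hist1h2br and Hist2h2bb, differed by -0.17 to 0.17.

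Histones H3 and H4 form the tetramer at the centre of the nucleosome. Hist1h3f at 1460314_s_at read 9.23, 8.52 and 7.33 in KO and 6.72, 8.24 and 6.73 in wildtype. KO replicate 3 and wildtype replicate 2 crossed, and the difference of 1.13 had an interval from -0.28 to 2.54 (limma adjusted p = 0.407). Its other probe set, 1431231_at, differed by 0.01. The probe set shared by Hist1h3b and Hist1h3h differed by 0.15 (limma adjusted p = 0.635). Both probe sets of Hist1h3d and that of Hist2h3c2 read near the floor.

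All 4 H4 probe sets had positive differences, with a median of 0.68. Hist1h4a, at a probe set that can match several of the near-identical H4 genes, read 9.81, 9.42 and 8.42 in KO and 7.62, 8.54 and 7.34 in wildtype. KO replicate 3 lay just under wildtype replicate 2. The log2 fold change was 1.38 (standard error 0.44, interval 0.34 to 2.43), a 2.61-fold difference that did not pass (limma adjusted p = 0.172). Hist1h4h read 5.36, 4.46 and 4.88 against 3.47, 4.15 and 3.85, without overlap. Its difference was 1.07 (interval 0.42 to 1.72, limma adjusted p = 0.104), and its wildtype mean of 3.83 lay under the floor, which may compress it. Hist1h4i differed by 0.16 (limma adjusted p = 0.833). Hist1h4j, with group means of 3.63 and 3.35, lay under the floor.

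**Figure D2:**
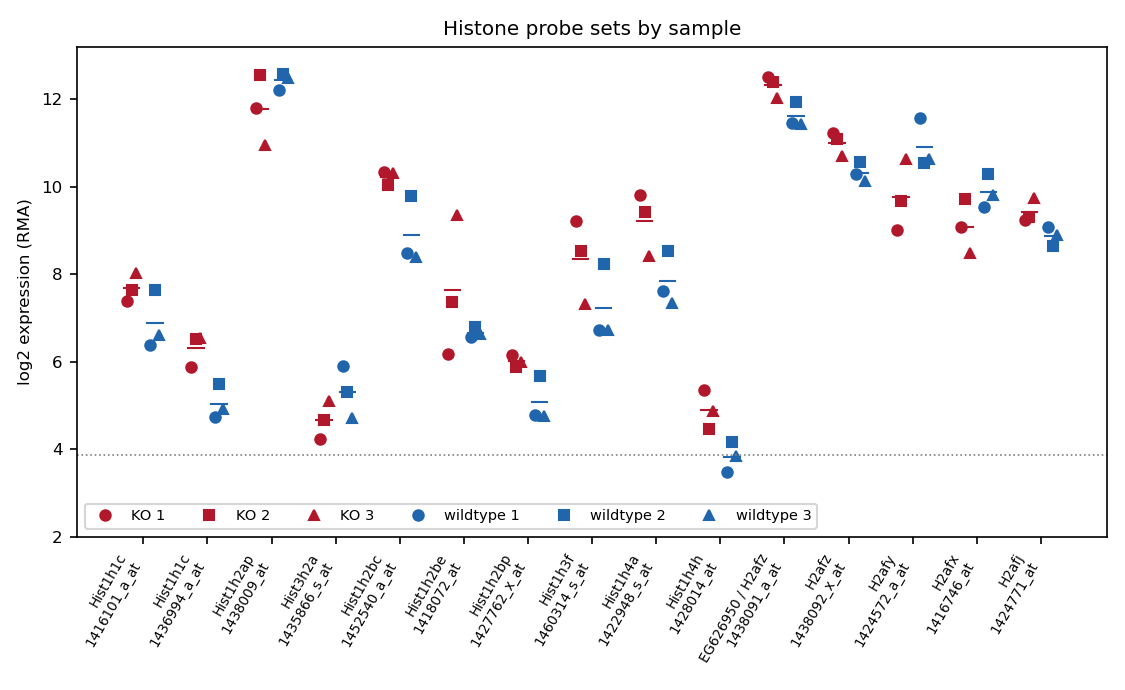
log2 expression of 15 histone probe sets, those named or without overlap that have a group mean above the floor and a difference of at least 0.5, in each sample, with red symbols for the samples labelled KO, blue for wildtype, the replicate number by shape, short lines at group means and a dotted line at the floor of 3.86. Wildtype replicate 2 (blue square) is the highest wildtype sample for Hist1h1c, Hist1h2bc, Hist1h3f and Hist1h4a, and KO replicate 3 (red triangle) reads 9.36 for Hist1h2be.

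Among the separately encoded histones, H2afz encodes H2A.Z, a variant found beside transcription starts. All 4 of its probe sets had positive differences, from 0.23 to 0.71, and 2 of them also name the RefSeq pseudogenes listed as EG626950 and EG666634. At 1438092_x_at H2afz read 11.23, 11.09 and 10.71 in KO and 10.29, 10.56 and 10.13 in wildtype, without overlap, a difference of 0.68 (interval 0.24 to 1.12, limma adjusted p = 0.121). At 1438091_a_at, shared with EG626950, the values were 12.52, 12.41 and 12.03 against 11.46, 11.93 and 11.44, again without overlap, a difference of 0.71 (limma adjusted p = 0.128). The probe set of H2afz with the highest mean, 1416415_a_at, read 12.59, 12.52 and 11.89 against 11.89, 12.23 and 12.20 and differed by 0.23 (limma adjusted p = 0.67). The sign was therefore shared by the probe sets while the size was not. All 4 are of the kind that can match several transcripts, so they may not be separate readings of H2afz alone. H2afv, the close relative of H2afz, read 8.74, 8.98 and 8.44 in KO and 9.01, 9.24 and 9.05 in wildtype. It was the only member lower without overlap, by a small difference of -0.38 (interval -0.78 to 0.02, limma adjusted p = 0.317).

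H2afx, which encodes the H2A that is phosphorylated at DNA breaks, read 9.08, 9.72 and 8.48 in KO and 9.53, 10.31 and 9.80 in wildtype. KO replicate 2 lay above wildtype replicate 1, and the difference was -0.79 (interval -1.60 to 0.03, limma adjusted p = 0.313). H2afy encodes macroH2A, a variant with a large extra domain that is abundant on silent chromatin. It read 9.01, 9.67 and 10.63 in KO and 11.57, 10.54 and 10.64 in wildtype. KO replicate 3 reached the wildtype range, and the difference of -1.15 had an interval from -2.24 to -0.06 (limma adjusted p = 0.27). H2afy2, the second macroH2A, differed by -0.07 and -0.18 at probe sets whose group means ran from 3.13 to 4.17. H2afj, an H2A variant of some differentiated cells, read 9.25, 9.31 and 9.75 against 9.08, 8.64 and 8.89 at 1424771_at, without overlap. This difference was 0.56 (interval 0.12 to 1.00, limma adjusted p = 0.187), while its further probe sets differed by -0.15 and 0.02.

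H3f3a and H3f3b encode the same replacement H3, which is laid down outside S phase. At the probe set of H3f3a with the highest mean the values were 12.32, 12.09 and 11.94 in KO and 12.11, 12.21 and 12.27 in wildtype. The difference of -0.08 had an interval from -0.40 to 0.24 (limma adjusted p = 0.827), the bound on how far the groups may differ there. Over the 6 probe sets that name H3f3a or H3f3b the differences ran from -0.38 to 0.07, and those shared by both genes cannot assign a value to either. H1f0, the linker histone that accumulates in cells leaving the cycle, read 6.71, 7.09 and 6.76 in KO and 6.20, 6.86 and 6.71 in wildtype at 1450522_a_at. The groups overlapped at both of its probe sets, with differences of 0.27 and 0.61 (limma adjusted p = 0.589 and 0.38).

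Wildtype replicate 2 stood apart from the other wildtype samples at several cluster genes. Among 41 members with a group mean above the floor it was the highest wildtype sample at 27 (65.9%), where this held for 28.4% of all such probe sets. Its value exceeded the mean of wildtype replicates 1 and 3 by at least 1 on the log2 scale at 5 of 22 cluster members above the floor (22.7%). These were also the only 5 among the 41 members above the floor (12.2%), against 2.38% of all probe sets above the floor. These 5, named after their values were seen, were Hist3h2ba (1.69), Hist1h3f (1.52), Hist1h2bc (1.36), Hist1h1c at 1416101_a_at (1.15) and Hist1h4a (1.06). The same sample had the highest T lineage mean (8.07), the highest S phase mean (7.75) and the highest erythroid mean of wildtype (8.43), and the part of each was not tested. Without wildtype replicate 2, 4 of the 55 members passed in limma (7.27%, background 4.86%), all higher in the samples labelled KO (background 1.61%). These were Hist1h2bc with a log2 fold change of 1.79 (adjusted p = 0.00513), Hist1h2bp with 1.23 (adjusted p = 0.0108) and Hist1h1c with 1.50 and 1.19 (adjusted p = 0.0282 and 0.0424). All 4 are probe sets that can match several transcripts, and 2 of them are of 1 gene.

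KO replicate 3 departed from the other KO samples at a few members (median -0.055 over the 41 above the floor, 0.045 over all such probe sets). Against the mean of KO replicates 1 and 2 it was lower by at least 1 on the log2 scale at 3 of 41 members above the floor (7.32%). This held for 3.7% of all probe sets above the floor. The 3 were Hist1h3f (-1.54), Hist1h2ap (-1.23) and Hist1h4a (-1.19), all among the 22 cluster members above the floor (13.6%). It was higher by at least 1 at Hist1h2be (2.59) and, outside the clusters, at H2afy (1.29), which are 2 of 41 members above the floor (4.88%), near the 3.5% of all probe sets above the floor. All 5 were named after their values were seen. The same sample had the lowest S phase mean of the 6 (6.11, against 7.26 and 7.68 in KO replicates 1 and 2), with a median departure of -1.43 over 45 S phase probe sets above the floor. Its erythroid mean, at 7.93, was the lowest of the KO samples.

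**Figure D3:**
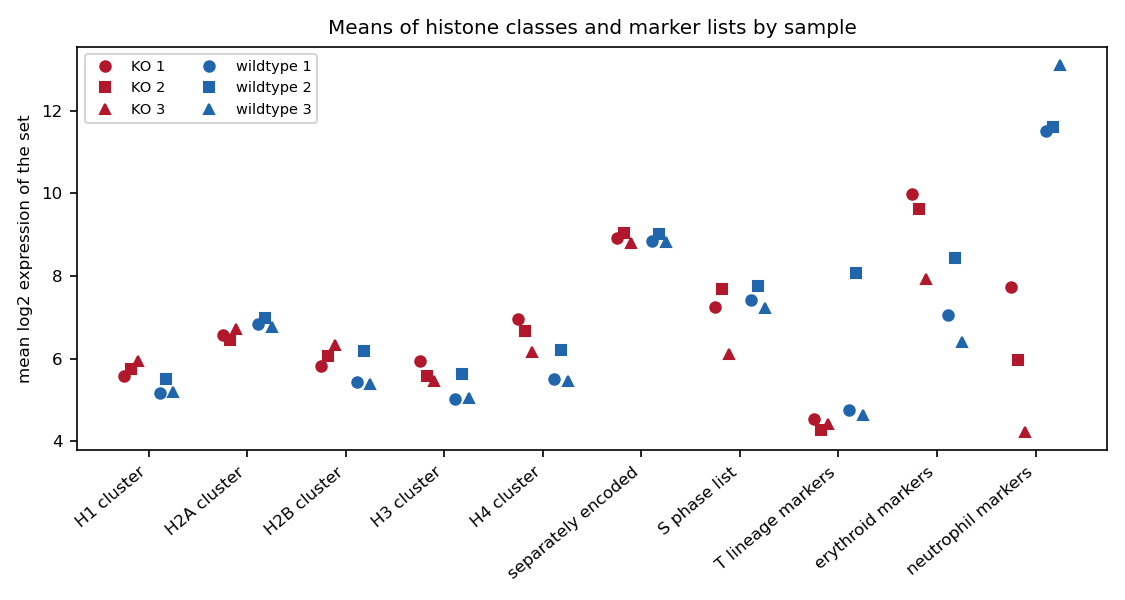
Mean log2 expression of each histone class (probe sets with a group mean above the floor) and of 4 gene lists, by sample. For H4 the wildtype replicate 2 mean of 6.20 lies above KO replicate 3 at 6.16, T lineage markers are high in wildtype replicate 2 (8.07), and the S phase list is low in KO replicate 3 (6.11).

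Genes that make, process or place histones mostly did not pass either. Of 42 probe sets for 22 genes of histone mRNA processing and transcription, 1 rose (background 1.53%) and 0 fell (background 1.4%), with a median log2 fold change of -0.01. It was Cstf2, a cleavage stimulation factor that also acts on histone pre-mRNA, with 6.74, 6.69 and 6.75 against 5.68, 5.95 and 5.45, a rise of 1.03 (limma adjusted p = 0.025). The call of Cstf2 held without wildtype replicate 2 and was lost when any of the other 5 samples was left out (limma adjusted p from 0.0117 to 0.106). With only the brightest probe set of each of the 22 genes, 0 rose and 0 fell. The brightest probe set of Cstf2 therefore did not pass. Cstf2t, its paralog, differed by 1.95 and Ncbp2, a cap-binding protein, by -0.84, and neither passed (limma adjusted p = 0.106 and 0.0581). Slbp, the stem-loop binding protein, read 8.95, 9.27 and 7.02 against 8.93, 9.33 and 8.63, with KO replicate 3 the lowest (difference -0.55, limma adjusted p = 0.7). Npat, the S phase activator of histone transcription, differed by -0.08 (limma adjusted p = 0.907).

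Of 73 probe sets for 24 histone chaperone and exchange genes, 1 rose (background 1.53%) and 0 fell (background 1.4%), with a median of 0.13. It was Nap1l4, a carrier of H2A and H2B, with 8.81, 8.84 and 9.49 against 7.61, 7.75 and 7.12, a rise of 1.55 (limma adjusted p = 0.0317). Nap1l4 passed without wildtype replicate 2 as well and not without any of the other 5 samples (limma adjusted p from 0.0288 to 0.11). Asf1a, a carrier of H3 and H4, differed by 1.39 and Znhit1, of the complex that inserts H2A.Z, by -1.35, without passing (limma adjusted p = 0.0564 and 0.0674). Anp32e, which removes H2A.Z, differed by 0.92 (limma adjusted p = 0.332). Hira, Daxx and Atrx, which place the replacement H3, differed by 0.44, -0.32 and -0.29, and Asf1b and Nasp by -0.40 and -0.17, with limma adjusted p from 0.306 to 0.883. Of 7 probe sets for 4 histone genes outside the rule 0 passed, and at an unadjusted p under 0.05 in limma there were 0 as well (median 0.12). Cenpa, the centromeric H3, differed by 0.84, H1fx by -0.40 and H1fnt by 0.24, the latter near the floor.

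Most S phase probe sets had negative differences, and KO replicate 3 carried the lower level. Of 57 probe sets for 26 S phase and proliferation genes, 0 rose (background 1.53%) and 1 fell (background 1.4%). Negative differences numbered 44 (77.2%, against 46.1% of all probe sets), and the median was -0.25. The list mean was 7.26 and 7.68 in KO replicates 1 and 2, within the wildtype range from 7.21 to 7.75, and 6.11 in KO replicate 3. The median was -0.000545 without KO replicate 3, -0.14 without wildtype replicate 2 and -0.62 without KO replicate 2. The call was E2f1, an activator of S phase genes, at 1431875_a_at, with 4.80, 5.02 and 4.76 against 5.58, 5.48 and 5.69 (log2 fold change -0.72, limma adjusted p = 0.0386). For E2f1, too, leaving out wildtype replicate 2 kept the call and leaving out any of the other 5 samples ended it (limma adjusted p from 0.0457 to 0.119). With only the brightest probe set of each of the 26 genes, 0 rose and 0 fell, so the brightest probe set of E2f1 did not pass. Gins2, a subunit of the replicative helicase, differed by -0.84 and -0.67 at its probe sets without passing (limma adjusted p = 0.0705 and 0.154). Pcna, the sliding clamp of replication, differed by -0.50 and Mki67, a marker of cycling cells, by -0.08 (limma adjusted p = 0.671 and 0.966). No test was made of the difference between the S phase list and the histone probe sets.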

How the data were processed

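Marrow RNA of 6 samples (200 ng each, per the labels) was hybridised to Affymetrix arrays of the type MG-430_2.0. RMA, in a version not given in the sources used here, produced the deposited log2 values (submitters' processing notes). It subtracts background, equalises the arrays by quantiles and sums up each probe set. The annotated table deposited by the authors repeats these log2 values (largest difference 0) beside symbols, signed fold and p-values. Array medians lay between 3.73 and 3.86. Precision is limited by having 6 arrays.

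All 45037 probe sets other than 64 controls were fitted together in limma 3.58.1 (lmFit and eBayes in R 4.3.3) as a two-sided comparison of KO with wildtype, unfiltered, at a Benjamini-Hochberg adjusted p under 0.05. Probe sets were not collapsed to genes, because histone probe sets often match several genes. The fit was also run on simulated data (45037 probe sets, 3 against 3) with 50 probe sets changed at each log2 size of 1, 2, 4 and 6. It recovered 30% of those with a log2 change of 1 and 70% of those with 2, with 5 false calls among 154. The real comparison had 1319 calls. The adjusted threshold thus fell at another place there, and these rates need not hold for it. Of 32 member symbols 31 matched RefSeq (GRCm38.p6) and 27 had a promoter. Figures used matplotlib 3.10.9 in Python 3.11.15.

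The members and lists were chosen with earlier results of these data known. Probe sets were named by a rule: any past the threshold, in each cluster class the brightest and the 2 with the largest difference above the floor, the brightest of each separately encoded histone, and in each other list the 3 smallest p-values and 12 fixed genes. List counts use probe sets that name 1 gene, and Chaf1a, 1 of the 12, had none. The settings varied were a replicate block, single samples left out, a further quantile normalization, no dim probe sets, an intensity trend, robust moderation, array weights, no probe sets that can match several transcripts, 1 probe set a gene, and the authors' statistics. Scanner files were not used here, so background correction was not varied. Same-numbered samples of the 2 groups did not deviate together, with correlations of their deviations of -0.14, -0.03 and -0.02.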

Additional observations from a re-analysis of the deposited data

How the results depend on the processing

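The count of 0 among the 55 members stayed at 0 under a further quantile normalization, an intensity trend, robust moderation, array weights, no probe sets that can match several transcripts (33 members; 2 at an unadjusted p under 0.05), 1 probe set a gene (29 members) and the authors' statistics. It was 1 (Hist1h1c, H1) with a replicate block (limma adjusted p = 0.0494), though the numbers do not pair the samples. That was 1.82% of the 55 members, against 1.85% of all probe sets. It was also 1, the same probe set, without dim probe sets (limma adjusted p = 0.0379, fewer probe sets tested). That was 2.44% of 41 members, against 8.68% of all probe sets kept. With single samples left out the count of members ran from 0 to 4, from 0 to 2 for H1 and from 0 to 2 for H2B. In each case it was above 0 only without wildtype replicate 2. The processing list (1 call) had 0 with a replicate block, an intensity trend or 1 probe set a gene, 2 without dim probe sets, and 0 to 2 with samples left out. The chaperone list (1 call) had 0 with a block, 2 after quantile normalization, 3 without dim probe sets, 2 with 1 probe set a gene, and 0 to 4 with samples left out. The S phase list (1 call) had 0 with a block, quantile normalization, an intensity trend, 1 probe set a gene or no probe sets that can match several transcripts, and 0 to 1 with samples left out. The other histone genes had 0 to 1 with samples left out. Of all probe sets, 3.09% passed after quantile normalization, 8.68% without dim probe sets and 4.55% with 1 probe set a gene. With single samples left out, 0.109% to 4.86% of all probe sets passed. Of 268 values of the 19 named member probe sets under alternatives, 258 kept direction and side of the threshold, 5 passed it and 5 changed sign, all near 0: H2afy2 (-0.20 to 0.012 with samples left out), H3f3a (-0.18 to 0.0086) and the probe set of H3f3a and H3f3b (-0.18 to 0.31). With single samples left out, differences of further named members also moved by more than 1.5 times: Hist1h3f (0.70 to 1.65), Hist3h2a (-0.93 to -0.33), H2afx (-1.10 to -0.48), H2afz at its brightest probe set (0.099 to 0.45) H2afv (-0.51 to -0.24), the probe set of Hist1h3b and Hist1h3h (0.069 to 0.20) and H1f0 (0.073 to 0.40), none of which passed. Unless stated, the cause was not tested.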
